A study of Mus musculus with 12 samples.

Results

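The colonic mucus gel is built on the mucin Muc2, but it also carries a small set of secreted proteins that are not mucins. Transcripts of 6 of these, Fcgbp, Clca1, Zg16, Tff3, Spink4 and Reg4, were followed here in the proximal colon of mice with and without the long non-coding RNA EPR. The genes were taken by their symbols and are 6 of the 55376 genes in the count table. All 6 were lower on average in the knockout, with log2 fold changes from −1.36 for Clca1 to −0.28 for Reg4, and 3 of them passed the test. None of the 15 pairs of these genes passed a test of the difference between their changes.

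Goblet cells of the colon epithelium make the gel. They store Muc2 in granules together with partner proteins and release both into the lumen, where the gel keeps bacteria away from the epithelium. Fcgbp is a large protein with repeated von Willebrand factor D domains. Clca1 is a secreted metalloprotease that processes Muc2, and Zg16 is a small lectin that binds the cell wall of Gram-positive bacteria. Tff3 is a trefoil peptide known for its part in epithelial repair, Spink4 carries a Kazal-type domain as found in serine protease inhibitors, and Reg4 is a secreted C-type lectin of the regenerating family that also marks deep crypt secretory cells of the mouse colon.

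RNA-Seq was performed on the proximal part of the colon of 12 mice aged 12 weeks, as whole tissue and not as isolated crypts. In 6 animals both EPR alleles were floxed and no Cre was present (EPR fl/fl). The other 6 carried the same floxed alleles and the CDX2P-NLS Cre transgene (EPR cKO), in which human CDX2 regulatory sequences drive the recombinase in the epithelium of distal ileum, cecum and colon and the EPR promoter with exon 1 is removed. A Cre-only group was not analysed here, so the effect of the transgene and that of EPR loss cannot be told apart. Smim31, the name under which the table lists EPR, fell from 39.5 ± 14.5 CPM, counts scaled to library size, to 0.132 ± 0.152 CPM (SD, n = 6 each). EPR fl/fl animals are called controls below and EPR cKO animals knockouts.

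Libraries held between 13093904 and 33211041 counts. The CPM were scaled by the trimmed mean of M-values (TMM), and a fold change is the log2 ratio of knockout to control from edgeR's quasi-likelihood test with Benjamini-Hochberg adjustment over 15952 tested genes. At an adjusted p under 0.05, 251 genes were lower and 141 higher. Lower calls made up 86.4% of all calls (247 lower, 39 higher) when libraries were scaled by their total counts alone. The number of lower calls was 2273 without EPR cKO 1. EPR cKO 1 stood apart in its tissue content. Its difference between the mean log2 CPM of 14 epithelial markers and of 10 smooth muscle markers was −0.33, while the remaining knockouts ranged from 1.62 to 3.15 and the controls from 0.62 to 1.37. All 14 epithelial and 10 smooth muscle markers were tested and none was called. All 14 epithelial markers had log2 fold changes above 0 (median 0.25), and all 10 smooth muscle markers had them below 0 (median −0.48). The mean of the marker difference was higher by 1.16 in knockouts (two-sided exact permutation test, p = 0.0606). Apart from EPR cKO 1, every knockout lay above every control in this difference. A fit with it as a covariate, the tissue content score below, therefore separates tissue content and genotype poorly. The summed level of the smooth muscle markers ran from 3445 to 5869 CPM among controls and from 1236 to 10212 CPM among knockouts, and that of the epithelial markers from 10224 to 14919 and from 12275 to 18473 CPM.

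The 6 genes together took 0.997% ± 0.170 of all counts in the controls, as against 0.517% ± 0.0917 in the knockouts (SD, n = 6 each), and the ranges did not meet (0.847% to 1.33% against 0.366% to 0.621%). Fcgbp made up the largest portion of these counts in both groups, 45.2% ± 5.12 and 49.4% ± 6.68, followed by Clca1 with 30.2% ± 6.02 and 22.3% ± 5.42. In this bulk tissue, fewer goblet cells and less RNA per goblet cell cannot be told apart. Of the 6 genes, 3 were called lower and none higher, where 1.57% of all tested genes were called lower. The 6 were chosen with earlier results of these data known. For 2 genes, all 6 EPR cKO libraries lay below all 6 EPR fl/fl libraries, an arrangement found in 1.47% of tested genes. The median log2 fold change of the 6 was −0.66, against 0.02 over all tested genes.

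**Figure D1:**
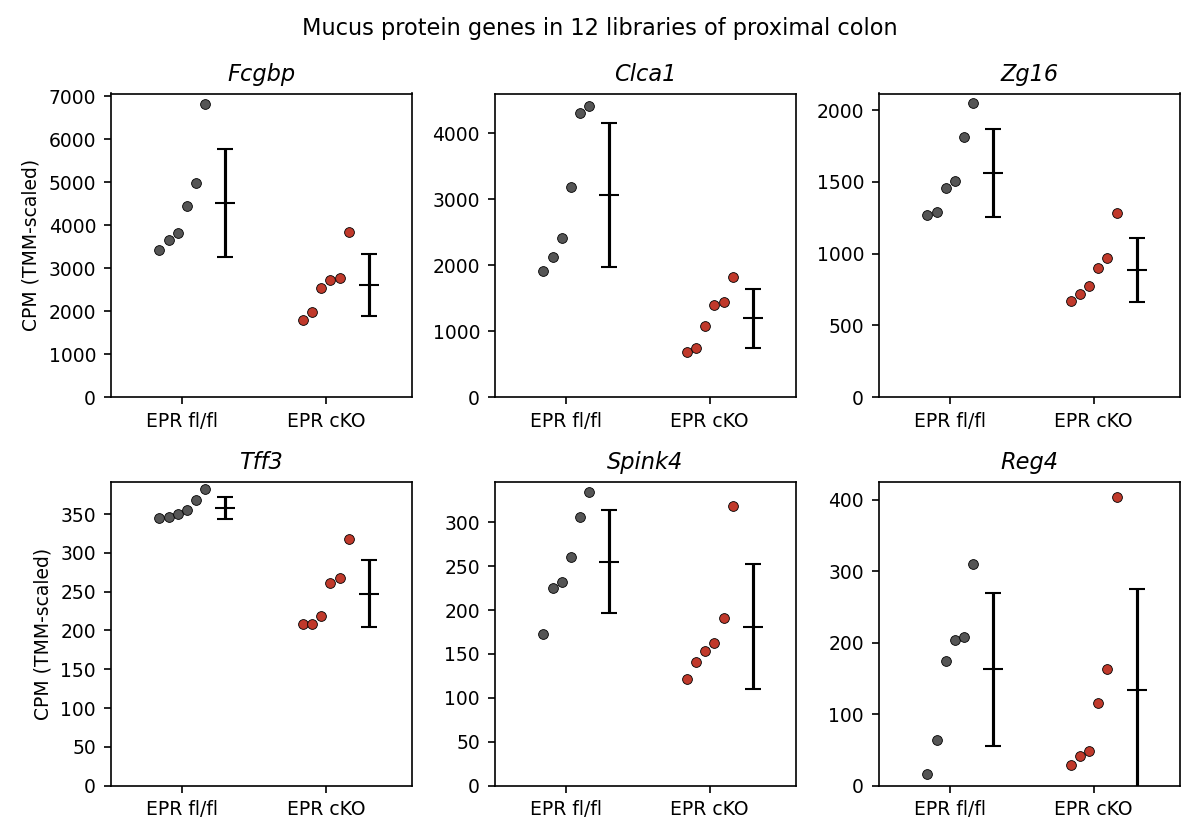
TMM-scaled CPM of the 6 mucus protein genes, one point per library (grey EPR fl/fl, red EPR cKO), with the group mean and SD beside the points. The groups are apart for Clca1 and Tff3, one EPR cKO library reaches into the EPR fl/fl range for Fcgbp and Zg16, and Reg4 spans 15.8 to 404 CPM with full overlap; its lower SD bar is clipped at 0.

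Clca1, the metalloprotease, showed the largest decrease of the 6. Its gene lies on chromosome 3 (145003817 to 145032776, minus strand, GRCm38) and its counts ran from 12947 to 135733 per library. The lowest, median and highest control values were 1921, 2804 and 4419 CPM, and the knockout values 689, 1235 and 1829 CPM. Every knockout library thus lay below every control, and the mean fell from 3063 ± 1095 to 1195 ± 443 CPM (SD, n = 6 each). The log2 fold change was −1.36 (SE 0.28, 95% interval −1.97 to −0.75, edgeR adjusted p = 0.0240). The call was close to the threshold. It was lost without EPR fl/fl 1 (edgeR adjusted p = 0.0521), EPR fl/fl 3 (0.0628), EPR cKO 3 (0.0648), EPR cKO 5 (0.0509) or EPR cKO 6 (0.0503), and with the tissue content score as a covariate (−1.09, 0.145). Of the 9 alternative fits to all libraries, 7 passed 0.05, and the log2 fold change stayed between −1.39 and −1.09.

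Fcgbp, the most abundant of the 6 by counts, was lower by a smaller amount and missed the threshold. The gene is on chromosome 7 (28071236 to 28120862, plus strand). Its values were 3426, 4140 and 6809 CPM (lowest, median, highest) in controls and 1787, 2638 and 3839 CPM in knockouts, so that 5 of 6 knockout libraries lay below all controls and EPR cKO 1, at 3839 CPM, was the exception. Controls averaged 4524 ± 1256 CPM and knockouts 2612 ± 724 CPM. The log2 fold change of −0.79 (SE 0.21, 95% interval −1.24 to −0.34) did not reach the threshold (edgeR adjusted p = 0.0663). It did without EPR cKO 1 (−0.95, edgeR adjusted p = 0.00553) and in 3 of 9 alternative fits, and it was −0.49 with the tissue content score as covariate (adjusted p = 0.247); the 9 alternatives ranged from 0.00471 to 0.247. Among the knockouts, Fcgbp was lower where the tissue content score was higher (Pearson's r = −0.90, exact permutation p = 0.0111, adjusted p = 0.133 over 12 relations, Spearman's rho = −0.77, p = 0.103, adjusted p = 0.617, n = 6), and r was −0.71 without the 2 libraries farthest from the median score. No relation of the score with any of the 6 genes passed after adjustment in either group, and its part in the difference of Fcgbp was not tested beyond the covariate. Fcgbp is the one gene of the 6 whose exons hold sequence of another gene: 8.5% of its 50-base stretches also occur in the exons of 9530053A07Rik, which had only 89 counts over all 12 libraries.

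Zg16 and Reg4 are both lectins. The change of their log2 ratio was −0.43 and did not pass (exact permutation p = 0.589, adjusted p = 0.883). Zg16, on chromosome 7 (127050156 to 127052675, minus strand), measured 1267, 1483 and 2047 CPM (lowest, median, highest) in controls and 668, 836 and 1281 CPM in knockouts. Only EPR cKO 5, at 1281 CPM, reached the lowest control values. The log2 fold change was −0.82 (SE 0.17, 95% interval −1.19 to −0.45, edgeR adjusted p = 0.0234), and it passed 0.05 in all 9 alternative fits (adjusted p from 0.000174 to 0.0417). It did not pass without EPR fl/fl 5 (0.0612), EPR cKO 2 (0.0692), EPR cKO 3 (0.0684) or EPR cKO 6 (0.0725). With the tissue content score as covariate its log2 fold change was −1.07, whereas those of Fcgbp and Clca1 came nearer to 0. EPR cKO 1, with the lowest score, was the lowest knockout for Zg16 (668 CPM) and the highest for Fcgbp (3839 CPM). The part of this library in these shifts was not tested.

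Reg4 (chromosome 3, 98222156 to 98236748, plus strand) was the most variable of the 6. Control values were 15.8 CPM at the lowest, 189 CPM at the median and 311 CPM at the highest, and knockout values 28.7, 82.1 and 404 CPM. The highest library was thus 19.7 times the lowest among controls and 14.1 times among knockouts, although the lowest count, in EPR fl/fl 3, was still 497 reads. The groups overlapped fully and the log2 fold change was −0.28 (SE 0.70, edgeR adjusted p = 0.845). Its 95% interval, −1.80 to 1.23, holds both the change of Clca1 and no change. Single libraries and the fit moved it widely without a call, to 0.00725 without EPR fl/fl 2 (edgeR adjusted p = 0.997), to −1.04 without EPR cKO 5 (0.496) and to −1.09 in limma-voom with quality weights (adjusted p = 0.254). Among the 1922 genes with a mean of at least 100 CPM, only 4 had a larger SD of log2 CPM in EPR fl/fl than Reg4 (1.59).

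Tff3, the trefoil peptide, was the most even in the controls. The gene lies on chromosome 17 (31125306 to 31129646, minus strand). Controls measured 345, 353 and 382 CPM (lowest, median, highest) and knockouts 208, 240 and 318 CPM, with no overlap. The means were 358 ± 14.6 and 247 ± 43.5 CPM, and the log2 fold change was −0.53 (SE 0.10, 95% interval −0.76 to −0.31, edgeR adjusted p = 0.0170). The 9 alternative fits gave adjusted p-values of 7.6e-05 to 0.0372, and the call was lost without EPR fl/fl 4 (0.0546) or EPR cKO 3 (0.0561). The SD of log2 CPM among controls was 0.058, and only 64 of the 1922 genes at this level had a lower one. Among knockouts it was 0.25, and 70.9% of the 1922 genes had a lower one there. The mean distance to the group median was larger in EPR cKO for Tff3 (two-sided exact permutation test, p = 0.00216, the smallest that 6 against 6 libraries allow, adjusted p = 0.0130 over the 6 genes) and not for the other 5 (adjusted p = 0.974 each). That call was lost when any EPR cKO library (exact permutation test, adjusted p of 0.519 to 0.818) or EPR fl/fl 2 (0.0519) was left out. With 5 libraries the group median is itself one of the values, whose distance is then 0.

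Spink4, the Kazal-type protein on chromosome 4 (40920052 to 40931395, plus strand), was at 173, 246 and 335 CPM (lowest, median, highest) in controls and at 122, 158 and 318 CPM in knockouts. Of the knockout libraries, 4 were below all controls and EPR cKO 5 was within the upper part of the control range. The log2 fold change was −0.49 (SE 0.22, 95% interval −0.98 to −0.01, edgeR adjusted p = 0.265). It was −0.73 without EPR cKO 5 (edgeR adjusted p = 0.0486), and 1 of 9 alternative fits, limma-voom with quality weights, also called it (0.0305, in a range of 0.0305 to 0.410). The fold changes of Spink4 and Tff3 were thus close in size, with standard errors of 0.22 and 0.10.

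**Figure D2:**
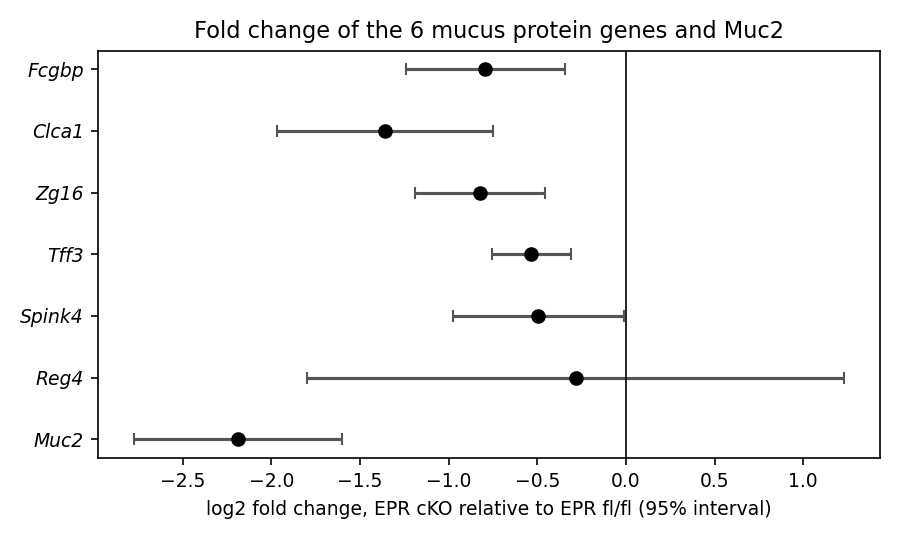
Log2 fold change of EPR cKO relative to EPR fl/fl (points) with 95% intervals from edgeR for the 6 genes and for Muc2. The intervals of Fcgbp, Clca1, Zg16, Tff3 and Spink4 lie below 0, that of Reg4 runs from −1.80 to 1.23, and Muc2 is at −2.19.

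In the main edgeR fit, none of the 6 reached the thresholds of the study's methods, a stricter adjusted p together with a minimum fold change. In that fit 27 genes, 0.169% of those tested, met them as lower and none as higher. Clca1 met them in the DESeq2 Wald test (−1.36, adjusted p = 6.3e-05). The 3 calls depended on single libraries of both groups. Without EPR fl/fl 1, 3, 4 or 5, 2 of the 6 passed 0.05. Without EPR cKO 3 none of the 6 passed 0.05, and without EPR cKO 6 only Tff3 did (edgeR adjusted p = 0.0482). Without EPR cKO 3 the log2 fold changes were −1.33 for Clca1, −0.82 for Zg16 and −0.50 for Tff3. In that fit 156 genes were called lower, against 251 with all libraries.

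To compare the genes with one another, levels were divided by the counted exon length. Per kilobase, Zg16 was the highest in EPR fl/fl with 2294 ± 451 CPM per kilobase, followed by Clca1 (838 ± 300), Tff3 (726 ± 29.7), Spink4 (643 ± 147), Fcgbp (570 ± 158) and Reg4 (159 ± 105, all SD, n = 6). The genes from Clca1 to Fcgbp were not separated from their neighbours: Clca1 exceeded Tff3 in 3 of 6 libraries, Tff3 exceeded Spink4 in 4 and Spink4 exceeded Fcgbp in 5. Zg16 was above Clca1, and Fcgbp above Reg4, in all 6 libraries, the smallest p that an exact sign-flip test of 6 libraries can give (0.0313, adjusted p = 0.0781 over 5 pairs). Among all tested genes Zg16 ranked 17 by this measure among controls and 28 among knockouts. Clca1 went from 35 to 138, and Reg4 from 302 to 414. In knockouts Clca1 (327 ± 121 CPM per kilobase) was level with Fcgbp (329 ± 91.2), which exceeded it in 4 of 6 libraries (exact sign-flip p = 0.719, adjusted p = 0.719). The table's lengths matter here, since it counted only some exon bases of Fcgbp (7932 of 10497 in the full annotation) and Zg16 (682 of 1257).

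**Figure D3:**
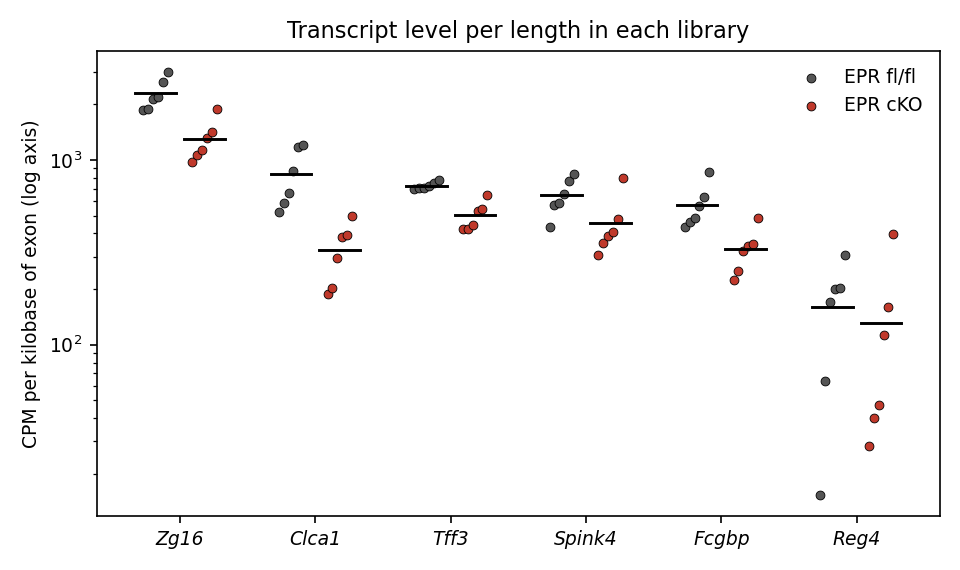
CPM per kilobase of counted exon on a log axis, one point per library and a line at the group mean (grey EPR fl/fl, red EPR cKO). Zg16 is the highest of the 6 in both groups, with means of 2294 and 1298, and the mean of Clca1 goes from 838, above those of Tff3, Spink4 and Fcgbp, to 327, level with Fcgbp.

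Whether the 6 genes differed from each other in their response was tested with log2 ratios within each library, which do not depend on the scaling of the libraries. None of the 15 pairs passed after adjustment (two-sided exact permutation test over all assignments of the libraries, smallest adjusted p = 0.292). The largest departures were those of Clca1. Its log2 ratio to Fcgbp went from −0.60 ± 0.34 to −1.17 ± 0.34 (SD, n = 6 each, exact permutation p = 0.0195, adjusted p = 0.292), and its log2 ratio to Tff3 from 3.02 ± 0.56 to 2.20 ± 0.62 (exact permutation p = 0.0411, adjusted p = 0.308). The ratio of Zg16 to Fcgbp moved by only −0.04 (exact permutation p = 0.909, adjusted p = 0.942), but with an SD of about 0.61 and 0.62 in the groups this bounds the difference loosely.

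The mucin itself fell by more than most of the 6. Muc2, the gel-forming mucin, averaged 8027 ± 3588 CPM in controls and 1760 ± 351 CPM in knockouts, with a log2 fold change of −2.19 (SE 0.27, edgeR adjusted p = 0.000741). The ratios of Muc2 to each gene were added after the values had been seen. The log2 ratio of Muc2 changed by −1.31 relative to Fcgbp, −1.28 relative to Zg16, −1.56 relative to Tff3 and −1.57 relative to Spink4 (exact permutation test, adjusted p of 0.00433, 0.0130, 0.00433 and 0.00433 over 6 ratios). Relative to Clca1 the difference was −0.74 and did not pass (exact permutation test, adjusted p = 0.0545), but it did without EPR fl/fl 1 (0.0442), EPR fl/fl 5 (0.0338) or EPR cKO 6 (0.0234). Relative to Reg4 it was −1.71, with SDs of 2.03 and 1.69 and an exact permutation adjusted p of 0.149. In controls Muc2 counts exceeded those of Fcgbp in the mean ratio (0.76 ± 0.36), and in knockouts Fcgbp exceeded Muc2 (−0.56 ± 0.34), with no overlap between the groups. These are ratios of counts and not of levels: per kilobase of counted exon Muc2 was above Fcgbp in both groups, at 2555 against 570 CPM per kilobase in controls and 560 against 329 in knockouts. The table counted 3142 of the 7127 exon bases of Muc2.

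**Figure D4:**
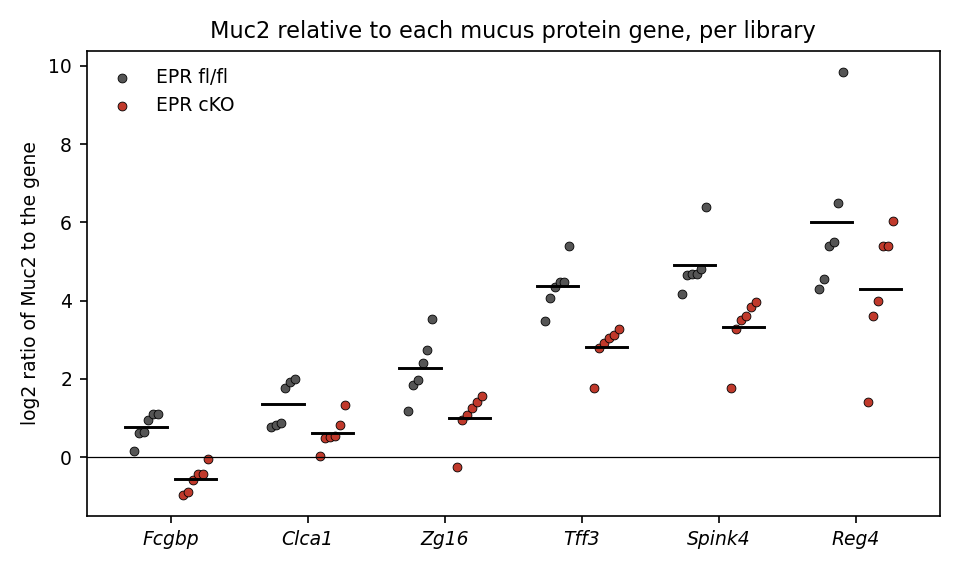
Log2 ratio of Muc2 to each of the 6 genes within a library (points, grey EPR fl/fl, red EPR cKO) and the group mean (lines). The EPR cKO points lie below all EPR fl/fl points for Fcgbp, Tff3 and Spink4, and below 0 for Fcgbp, where the mean is −0.56.

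In 2 libraries the 6 genes went opposite ways. EPR fl/fl 3 was the highest control library for Fcgbp (6809 CPM) and for Muc2 (14598 CPM) and the second for Clca1 (4303 CPM), yet the lowest of the controls for Zg16 (1267 CPM), Tff3 (345 CPM), Spink4 (173 CPM) and Reg4 (15.8 CPM). EPR cKO 5 showed the reverse. It was the highest knockout library for the same 4 genes, with 1281 CPM of Zg16, 318 CPM of Tff3, 318 CPM of Spink4 and 404 CPM of Reg4, while it was the fifth of 6 for Fcgbp (1990 CPM) and Clca1 (740 CPM) and the lowest for Muc2 (1073 CPM). These were the deepest library of each group, with 30727736 and 33211041 counts, and EPR cKO 5 also had the highest tissue content score (3.15). The part of depth or tissue content in this pattern was not tested.

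Residuals from the group means were compared over the 12 libraries, which differ in depth and tissue content. The part of these differences in the correlations was not tested. Fcgbp and Clca1 varied together (r = 0.78), as did Tff3 with Spink4 (0.79), Tff3 with Reg4 (0.72) and Spink4 with Reg4 (0.83). Without EPR fl/fl 3 and EPR cKO 5, left out after they had been seen, these 4 values were 0.70, 0.58, 0.75 and 0.58. The opposition of Fcgbp, Clca1 and Muc2 to Tff3, Spink4 and Reg4 was not seen without these 2 libraries. They had been picked for showing it. Fcgbp went from −0.33 to 0.39 with Spink4, from −0.35 to 0.45 with Reg4 and from −0.0013 to 0.58 with Tff3, and Muc2 from −0.48 to 0.59 with Spink4 and from −0.64 to 0.16 with Reg4. Zg16 stayed negative with Fcgbp (−0.58 and −0.38) and Muc2 (−0.66 and −0.36), while its values with Tff3 (0.52 to 0.044), Spink4 (0.49 to −0.32) and Reg4 (0.57 to 0.11) did not hold. Within the groups, none of 30 correlations of log2 CPM passed after adjustment, by Pearson's r or Spearman's rho (exact permutation test over 720 pairings, smallest adjusted p = 0.167 and 0.343). The lowest single p was that of Spink4 with Reg4 in EPR cKO (r = 0.91, exact permutation p = 0.00972, adjusted p = 0.167, rho = 0.89, p = 0.0333, adjusted p = 0.343, n = 6), and r was 0.65 without the 2 libraries farthest from the median of Spink4.

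**Figure D5:**
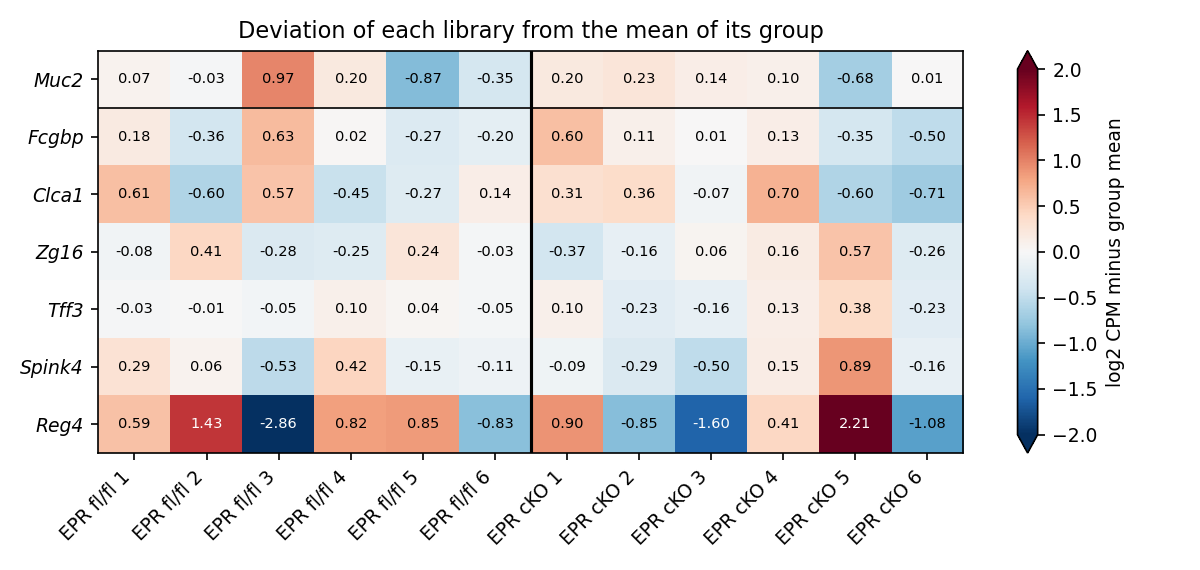
Log2 CPM of each library minus the mean of its group, for Muc2 and the 6 genes, with the value in each cell (red above, blue below the group mean; colours stop at 2 and −2). EPR fl/fl 3 is above its group for Muc2, Fcgbp and Clca1 and below it for the other 4, down to −2.86 for Reg4, and EPR cKO 5 shows the reverse signs, up to 2.21 for Reg4.

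The genes whose residuals were most like those of the 6 were, with few exceptions, not mucus proteins, and their likeness is given as a description over 12 libraries. The 3 closest to Fcgbp were Fer1l6, a ferlin made in goblet cells (r = 0.93), Dnmt3a (0.92) and Lman2l (0.91). Those closest to Clca1 were Ang4, a secreted antimicrobial ribonuclease (0.91), Pla2g6 (0.88) and Mindy2 (0.86). Reg4 was matched most closely by Gm43697 (0.97) and the sulfate and anion exchanger Slc26a1 (0.97), Spink4 by Epb41l3 (0.92), Dbt (0.89) and Rab9 (0.88), Tff3 by Mettl7a1 (0.89), Sult1a1 (0.89) and Kctd2 (0.87), and Zg16 by Ptp4a2 (0.94), Asb8 (0.92) and Abcd3 (0.91). Of the genes named here for their likeness, Fer1l6 alone was called lower, from 140 ± 27.9 to 69.4 ± 16.6 CPM (log2 fold change −1.01, SE 0.16, edgeR adjusted p = 0.00490).

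Of the 6 genes, 4 were not in the RefSeq promoter table (GRCm38.p6). Start regions are shown for Fcgbp, the most abundant by counts, and for Reg4, the most variable. Each is the 250 bases before the annotated start, on the plus strand, at chr7:28070986-28071235 for Fcgbp and chr3:98221906-98222155 for Reg4, with TATAA in capitals.
Fcgbp: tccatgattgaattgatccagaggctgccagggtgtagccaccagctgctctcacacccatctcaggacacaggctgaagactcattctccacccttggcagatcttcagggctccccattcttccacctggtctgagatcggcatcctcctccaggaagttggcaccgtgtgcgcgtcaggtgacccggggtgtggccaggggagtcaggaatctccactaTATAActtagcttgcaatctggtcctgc
Reg4: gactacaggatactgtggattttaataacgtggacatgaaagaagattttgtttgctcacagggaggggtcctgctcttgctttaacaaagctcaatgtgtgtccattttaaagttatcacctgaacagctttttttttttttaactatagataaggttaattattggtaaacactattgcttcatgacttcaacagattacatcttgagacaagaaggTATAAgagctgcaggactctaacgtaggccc
Both hold TATAA on the sense strand, beginning 28 bases before the start in Fcgbp and 31 bases before it in Reg4, a placement (25 to 40 bases before the start) found in 3.31% of 32851 promoters of the same length. The Fcgbp window is 56.4% G and C and that of Reg4 37.2%. On both strands, CACCC, letters bound by Klf-type factors, occurred 4 times in the Fcgbp window and CAGCTG, an E-box, once, and neither was found in that of Reg4. They occur in 52% and 13% of the promoters.

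No tested relative of the 6 genes was called lower. Of 26 listed paralogues, 25 were in the table and 11 were tested, with a median log2 fold change of 0.25, none called lower and 1 higher, where 0.884% of all tested genes were called higher. Among the relatives of Clca1, Clca4a was the most abundant, with 474 ± 244 CPM in controls and 834 ± 194 CPM in knockouts (log2 fold change 0.81, SE 0.32, edgeR adjusted p = 0.200). Clca3b (0.25, adjusted p = 0.369), Clca4b (0.99, 0.322), Clca3a2 (0.08, 0.851), Clca3a1 (−0.01, 0.990) and Clca2 (−1.02, 0.273) did not pass in edgeR either. The direction of Clca3a1, Clca3a2 and Clca3b turned under at least 1 alternative, while Clca3b passed without EPR cKO 1 (0.34, edgeR adjusted p = 0.0186).

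In the Reg family, the antimicrobial lectins Reg3b and Reg3g had higher means in EPR cKO but wide spreads, 258 ± 165 against 724 ± 1081 CPM for Reg3b (log2 fold change 1.49, SE 0.75, edgeR adjusted p = 0.311) and 100.1 ± 68.4 against 239 ± 260 CPM for Reg3g (1.26, SE 0.62, adjusted p = 0.305). EPR cKO 6 decided the size of both, since without it the log2 fold change was 0.14 for Reg3b and 0.44 for Reg3g. Reg3a was at −0.66 (adjusted p = 0.401). Reg1 was called higher (1.86, SE 0.45, adjusted p = 0.0473), at 0.319 ± 0.150 against 1.14 ± 0.612 CPM, which amounts to 42 and 158 reads over 6 libraries each. It passed in 3 of 8 alternative fits and in 1 of 8 fits without 1 library, the one without EPR cKO 1 (0.00441). Spink1, the only tested relative of Spink4, was at −0.54 (SE 0.17, edgeR adjusted p = 0.128), and the trefoil genes Tff1 and Tff2 had 3 and 27 reads in all and were not tested.

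Among 25 other proteins secreted into or bound to the mucus layer, 22 were tested, 4 were lower and none higher, where 1.57% and 0.884% of all tested genes were called, with a median log2 fold change of −0.44. This list, too, was chosen with earlier results of these data known, so the count is a description. The 4 called lower were Muc2, the kallikrein protease Klk1 (586 ± 92.9 to 134 ± 38.6 CPM, log2 fold change −2.13, edgeR adjusted p = 6.7e-05), the matricellular protein Ccn3 (−2.08, 0.000343) and the whey acidic protein Wfdc2 (−1.34, 0.00489). Agr2, a disulfide isomerase needed for Muc2 folding, was at −0.59 (SE 0.24, edgeR adjusted p = 0.209) and passed with a smaller change without EPR cKO 1 (−0.44, 0.0260) and with a larger one with the tissue content score as covariate (−1.27, 0.000299). EPR cKO 1, with the lowest score, was also the lowest for Agr2, at 200 CPM against 489 to 788 CPM in the other knockouts. The part of this library in the covariate fit was not tested. The log2 fold changes of Muc2, Klk1 and Ccn3 were beyond that of Clca1, as were those of 3 genes that were not called, Mptx1 (−3.28, edgeR adjusted p = 0.126), Itln1 (−2.12, 0.115) and Retnlb (−1.94, 0.0847, 173 ± 152 against 44.9 ± 22.9 CPM). Pigr, the receptor that carries IgA into the lumen, and Lypd8, an antibacterial surface protein, named like these 3 after their values were seen, were at −0.27 and −0.14 (edgeR adjusted p = 0.334 and 0.737). Of the 22 tested genes, 16 had log2 fold changes below 0. The highest was that of Sval1 (0.87, edgeR adjusted p = 0.246), and Lgals3 was at 0.53 (0.114), both likewise named afterwards.

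Of 30 other genes of goblet cells, 29 were tested, 16 were lower and none higher (1.57% and 0.884% of all tested genes), with a median log2 fold change of −0.84. The list was chosen with earlier results of these data known, and the study names some of its genes, such as B3gnt6 and Sytl2, as reduced. The count is a description and no independent support. Of the transcription factors in the list, 3 were called, Atoh1, which sets the secretory lineage, from 64.3 ± 8.97 to 29.5 ± 5.41 CPM (−1.12, edgeR adjusted p = 0.000584), Spdef (−0.80, 0.0497) and Creb3l4 (−0.90, 0.0366). Foxa3 (−0.59, edgeR adjusted p = 0.0604), Creb3l1 (−0.52, 0.106), Xbp1 (−0.19, 0.278), Foxa1 (−0.04, 0.889), Klf4 (0.23, 0.319) and Cdx2 (0.30, 0.204), named after their values were seen, were not. The granule release genes Sytl2 (−0.96), Sytl4 (−0.85) and Rab27a (−0.88) fell, as did the O-glycan enzymes B3gnt6 (−2.75) and Galnt5 (−1.12), with edgeR adjusted p-values from 4.33e-05 to 0.00108, while Galnt12 (−0.18, 0.496) and Gcnt3 (−0.13, 0.505), likewise named afterwards, were not called. The other 8 were Hgfac (−1.47), Tspan13 (−1.03), Fer1l6 (−1.01), Slc12a8 (−0.91), Tpsg1 (−0.90), Bcas1 (−0.87), Capn9 (−0.84) and Tmed3 (−0.56), with edgeR adjusted p-values from 0.000103 to 0.0222. Of the 20 genes called in the 2 lists, 17 stayed past 0.05 in edgeR whichever library was left out, the exceptions being Spdef and Creb3l4 (past in 2 of 12 fits each) and Slc12a8 (8 of 12). The calls of Clca1, Zg16 and Tff3 were past in 7, 8 and 10 of the same 12 fits.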

How the data were processed

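Stranded total RNA depleted of ribosomal RNA was sequenced by the study, and per its methods reads were trimmed, aligned with STAR 2.5.3a to mm10 (GRCm38) and counted per gene with featureCounts. The strand setting and the handling of reads with several alignments were not given in the sources used here. The deposited table holds the authors' raw counts per gene for 12 libraries, with no normalization. Libraries were grouped by the labels, 6 EPR fl/fl and 6 EPR cKO, each from 1 animal. Pairs of libraries within a group differed by far more than counting noise (chi-square per gene of at least 23.3), and p-values measure the spread between these animals.

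Genes with at least 1 CPM in at least 4 libraries (15952) were tested with edgeR 4.0.16 (R 4.3.3) after TMM scaling, with SE as the absolute log2 fold change over the square root of F. The biological coefficient of variation was 26.1%, and fold changes had a median SE of 0.145 on the log2 scale. DESeq2 1.42.0 and limma 3.58.1 served as alternatives. Log2 CPM for ratios, spreads, scores and correlations used a prior count of 2. The fit was checked on simulated counts. The exact permutation and sign-flip tests of means were checked on made-up values with known p-values. The permutation test of correlations was not checked in this way. The tissue content score is the mean log2 CPM of 14 epithelial minus that of 10 smooth muscle markers. Named genes were the 6 genes and Smim31, every tested paralogue, every gene with an adjusted p under 0.05 in the lists of mucus-layer and goblet cell genes with Muc2 and Agr2, and for each of the 6 the 3 genes with the highest residual correlation. A gene that this rule names is not reported here. The members and lists were chosen with earlier results of these data known.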

Additional observations from a re-analysis of the deposited data

Results flagged for a closer look

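In 4 of 20 sets of 6 libraries tested (10 genes or scores in 2 groups), 1 library lay farther from the rest than the 95% limit of Dixon's gap test, where chance flags about 1 in 20. EPR cKO 5 was the library in 3 of them. Its Spink4 value was 318 CPM against 122 to 191 CPM in the other EPR cKO libraries, its Reg4 value 404 CPM against 28.7 to 163 CPM, and its Muc2 value 1073 CPM against 1735 to 2028 CPM. Without EPR cKO 5 the log2 fold change of Spink4 was −0.73 and that of Reg4 −1.04, the latter with an edgeR adjusted p of 0.496. Smim31 in EPR cKO 2 was at 0.424 CPM (10 reads), against 0 to 0.134 CPM in the other 5 EPR cKO libraries.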

How the results depend on the processing

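The log2 fold changes of the 6 genes stayed negative in every fit run, 9 alternatives and 12 fits without 1 library each, except that of Reg4, which ran from −1.04 to 0.00725 without single libraries. Their calls moved more. Fcgbp passed 0.05 at −0.79 in the DESeq2 Wald test, limma-voom and limma-voom with quality weights, Spink4 at −0.67 in the last of these, which called 5 of the 6, and Clca1 did not pass with the tissue composition covariate (−1.09). The replicate numbers in the labels do not pair the libraries (r of same-numbered deviations from −0.242 to 0.34), and with a replicate block Clca1 was at −1.38 and did not pass (edgeR adjusted p = 0.0676), with 178 genes lower and 67 higher at 0.05 and 4 lower at the study thresholds. It changed no other call of the 6. Without single libraries, 0 to 4 of the 6 were called, with log2 fold changes of −0.95 to −0.64 for Fcgbp, −1.52 to −1.23 for Clca1, −0.96 to −0.73 for Zg16, −0.62 to −0.49 for Tff3 and −0.73 to −0.40 for Spink4, and 0 to 1 spreads differed. The tissue content score differed by 1.16 (exact permutation p = 0.0606, 0.93 to 1.63 without single libraries, and p = 0.00216 without EPR cKO 1).

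Over all genes, 473 were lower and 440 higher in the DESeq2 Wald test (69 and 8 at the study thresholds) and 1891 and 1372 in limma-voom with quality weights (51 and 4). The count of higher genes was 39 with total-count scaling, 54 with no low-count filter and 80 with the tissue composition covariate. Without single libraries, 145 to 2273 genes were lower and 28 to 1178 higher, and 19 to 48 and 0 to 3 at the study thresholds. The cause of these shifts was not tested.

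Directions that turned belonged to differences that did not pass in the main tests. Of these, Clca3b passed without EPR cKO 1 (0.34, edgeR adjusted p = 0.0186). Clca3a1 was at 0.25 and Clca3b at −0.11 with the tissue composition covariate and Clca3a2 at −0.054 with quality weights, and without single libraries Clca3a1 ran from −0.17 to 0.10 and Clca3a2 from −0.0404 to 0.20. Ratio differences without single libraries ran from −0.22 to 0.16 for Zg16 to Fcgbp, −0.76 to 0.0844 for Zg16 to Reg4, −0.75 to 0.31 for Fcgbp to Reg4, −0.082 to 0.0884 for Tff3 to Spink4, −0.43 to 0.42 for Tff3 to Reg4 and −0.41 to 0.33 for Spink4 to Reg4. Differences in spread ran from −0.0616 to 0.12 for Fcgbp, −0.0903 to 0.11 for Clca1, −0.0342 to 0.12 for Zg16, −0.0896 to 0.12 for Spink4 and −0.24 to 0.67 for Reg4. Fits without single libraries for the spreads, the score and the Muc2 ratios were chosen after seeing the data.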
